A study of Caenorhabditis elegans with 12 samples.

Results

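The promoters of *pgl-1* and *pals-29* lie on chromosome IV, at loci that the study examined in its work on histone H3 lysine 9 methylation (H3K9me). Their accessibility was followed in ATAC-seq libraries of sorted body-wall muscle cells. Members were all promoter windows that overlapped the interval 6975000-6981000 around *pgl-1* or the interval 14535000-14550000 around *pals-29* in the ce10 assembly. This rule used positions and no measured value. It took 43 of 51519 windows, 4 in the *pgl-1* interval and 39 in the *pals-29* interval. Most windows in the table cover 1700 bp, with 1500 bp upstream and 200 bp downstream of a transcription start site, and all levels compared here are per window of that length.

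Libraries were made from L3 larvae of 4 genotypes with 3 replicates each. WT is given in the labels as N2 (Bristol). The single mutants carried the allele *n4256* of *met-2* or the allele *n5021* of *set-25*, both on chromosome III, and the double mutant (*met-2 set-25*) carried both alleles. According to the methods, muscle cells were sorted by a red fluorescent reporter under the *myo-3* promoter, carried by a *gwIs4* array that all 4 genotypes would then share although the labels do not name it. The growth protocol in the labels states 2 independent biological replicates whereas 3 libraries per genotype are listed. The spread between these libraries may thus in part be technical. The p-values and intervals of the edgeR fits rest on this spread, estimated in part from other windows, many of which overlap.

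MET-2 is the worm homologue of SETDB1 and deposits mono- and dimethylation on H3K9, and SET-25 deposits trimethylation. H3K9me marks heterochromatin, where genes of other tissues are kept silent. PGL-1 is a scaffold protein of P granules, the RNA-rich condensates of the worm germ line, and is not a muscle protein. PALS-29 belongs to a family of proteins with an ALS2CR12 signature, several of which take part in the response to intracellular pathogens of the intestine. In ATAC-seq the Tn5 transposase inserts adaptors into open DNA, so the count in a window is a measure of accessibility and not of transcription. The question addressed by the comparisons is whether these promoters became more accessible without MET-2, SET-25 or both.

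The column totals, which are sums over overlapping windows and not the sequencing depth, ranged from 50148450 to 105547683 counts, and the median window held 1479 counts per library. All levels are given as counts per 1000000 counts of the column total (CPM). The median window had 18.7 CPM over the 12 libraries, with quartiles at 16.6 and 21.1 CPM. All 13 genes of a body-wall muscle list had WT levels above the upper quartile of all windows, compared with 5 of 8 neuronal, 4 of 5 pharyngeal, 3 of 7 hypodermal, 1 of 7 intestinal and 4 of 11 germline genes with a window. The muscle genes ranged from 23.6 to 4471.78 CPM in WT. Their median was 26.6 CPM, beside 18.8 CPM over all windows in WT. The list includes *myo-3*, whose promoter drives the sorting reporter, and whether array copies added reads to its window was not tested. A signal index, the percentage of autosomal counts in the 5% of windows with the highest *set-25* mean, differed between genotypes. In the order of replicates 1, 2 and 3 it was 9.31, 9.99 and 9.08% for WT and 9.78, 10.002 and 8.87% for *met-2* libraries. It was 9.12, 9.15 and 9.12% for *set-25* and 10.1, 11.3 and 10.4% for double-mutant libraries. The index was thus highest in the double mutant, and within every genotype the highest value belonged to replicate 2, by a small margin in *set-25*.

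The *pgl-1* window (NM_001047601, chromosome IV, 6977108-6978807, minus strand) showed no detectable difference in accessibility between mutant and WT muscle. The WT libraries had 19.4, 17.96 and 19.95 CPM, in the order of replicates that is also used below. The *met-2* libraries had 18.4, 19.4 and 20.5 CPM and the *set-25* libraries 20.6, 20.01 and 18.5 CPM. The double-mutant libraries had 18.7, 18.3 and 19.99 CPM. The libraries of all 4 genotypes overlapped, and no genotype stood apart.

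The *pgl-1* means were 19.1 ± 1.03 CPM in WT, 19.4 ± 1.06 CPM in *met-2*, 19.7 ± 1.11 CPM in *set-25* and 18.98 ± 0.898 CPM in the double mutant (SD, n = 3). In the order of these means, from *set-25* down to the double mutant, no neighbours differed beyond their spread. The log2FC of *met-2* over WT was 0.025 (95% interval -0.095 to 0.14) and that of *set-25* over WT 0.046 (-0.075 to 0.17). The log2FC of *met-2 set-25* over WT was -0.0080 (-0.13 to 0.11), with a positive value of 0.027 after TMM scaling. None passed an FDR of 0.01 in the quasi-likelihood test of edgeR, with Benjamini-Hochberg adjusted values of 0.99, 0.87 and 0.95. In this fit the upper bound for the double mutant corresponds to a 1.08-fold higher level of the whole 1700 bp window. The bound refers to all counts in the window, and the share of background reads among them was not estimated. A gain confined to a part of the window was not tested. With the log2 of the signal index as a covariate, the log2FC of the double mutant over WT changed sign to 0.10 (95% interval -0.052 to 0.26, edgeR FDR 0.84), with an upper bound of 1.196-fold. The double mutant also did not differ detectably from *met-2* (log2FC -0.033, edgeR FDR 0.77) or *set-25* (log2FC -0.054, FDR 0.51). The interaction, the difference in the double mutant minus the sum of the differences in the single mutants, was -0.079 (edgeR FDR 0.59).

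**Figure D1:**
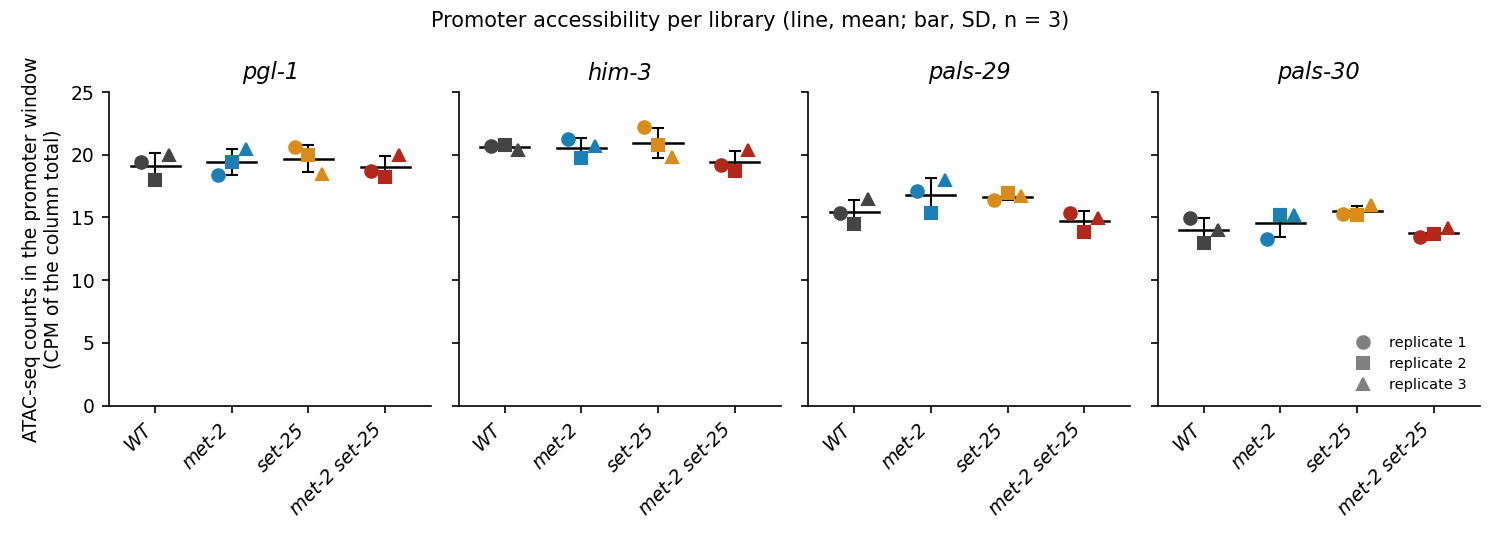
Counts in the promoter windows of *pgl-1*, *him-3*, *pals-29* and *pals-30* in CPM of the column total, with a point per library, grouped by genotype (horizontal line, mean; bar, SD, n = 3; marker shape, replicate number). The *pgl-1* libraries lie between 17.96 and 20.6 CPM in all genotypes, and the *pals-29* libraries between 13.8 and 17.9 CPM.

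The other windows of the *pgl-1* interval share bases with it. *him-3*, which encodes a HORMA-domain protein of the meiotic chromosome axis, is transcribed in the opposite direction from a start site 201 bp away, and its window (NM_068677, 6976008-6977707, plus strand) shares 600 bases with that of *pgl-1*. Reads in the shared part cannot be assigned to either gene. A second *him-3* transcript (NR_131562) starts a few bases away. The remaining window belongs to an identifier, NM_001380299, which matched no gene name. Its start site lies 69 bp from that of *pgl-1*, and the windows share 1631 bases.

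The *him-3* window had 20.7, 20.8 and 20.4 CPM in WT and 21.3, 19.7 and 20.7 CPM in *met-2*. It had 22.2, 20.7 and 19.8 CPM in *set-25* and 19.2, 18.7 and 20.4 CPM in the double mutant. The 3 double-mutant libraries lay just below the lowest WT library, with 1 of them at nearly the same value. The log2FC of the double mutant over WT was -0.089 (SE 0.057) and did not pass the test (edgeR FDR 0.32). The window of the second *him-3* transcript, with -0.092, had the largest difference of the interval (edgeR FDR 0.30). Over the 4 windows, the values ranged from -0.092 to -0.0050, and no gain was detectable on the *him-3* side of *pgl-1*.

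The *pals-29* window (NM_070363, T27E7.6, chromosome IV, 14542391-14544090, minus strand) had slightly higher means in both single mutants than in WT and the lowest mean in the double mutant. The WT libraries had 15.4, 14.4 and 16.5 CPM. The *met-2* libraries had 17.1, 15.3 and 17.9 CPM and the *set-25* libraries 16.4, 16.9 and 16.7 CPM. The double-mutant libraries had 15.4, 13.8 and 14.96 CPM. WT libraries overlapped with those of every mutant, whereas the 3 double-mutant libraries all lay below the 3 *set-25* libraries.

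The *pals-29* means were 15.4 ± 1.01 CPM in WT, 16.8 ± 1.34 CPM in *met-2*, 16.7 ± 0.274 CPM in *set-25* and 14.7 ± 0.807 CPM in the double mutant (SD, n = 3). No mutant differed from WT in the test. The log2FC was 0.12 for *met-2* (95% interval -0.019 to 0.26, edgeR FDR 0.96) and 0.11 for *set-25* (-0.028 to 0.25, FDR 0.72). For *met-2 set-25* over WT it was -0.068 (-0.21 to 0.072, edgeR FDR 0.56), with an upper bound of 1.05-fold in this fit, again for all counts of the whole window.

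Compared with the single mutants, the *pals-29* window in the double mutant had a log2FC of -0.19 (SE 0.069, edgeR FDR 0.097) over *met-2* and -0.18 (SE 0.069, FDR 0.047) over *set-25*. The interaction was -0.30 (SE 0.098, FDR 0.062). None of these passed an FDR of 0.01. The *pals-29* level was lowest in replicate 2 for WT, *met-2* and the double mutant, the libraries with the highest signal index of their genotype. In *set-25*, by contrast, replicate 2 had the highest index by a small margin and also the highest *pals-29* level. With the log2 of the signal index as a covariate, the log2FC of the double mutant was 0.052 over *set-25* (edgeR FDR 0.97) and 0.11 over WT (95% interval -0.061 to 0.28, FDR 0.84), so that both changed sign and the upper bound over WT rose to 1.21-fold. Every double-mutant library had a higher index than every other library, so the index and the genotype cannot be told apart in that fit.

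**Figure D2:**
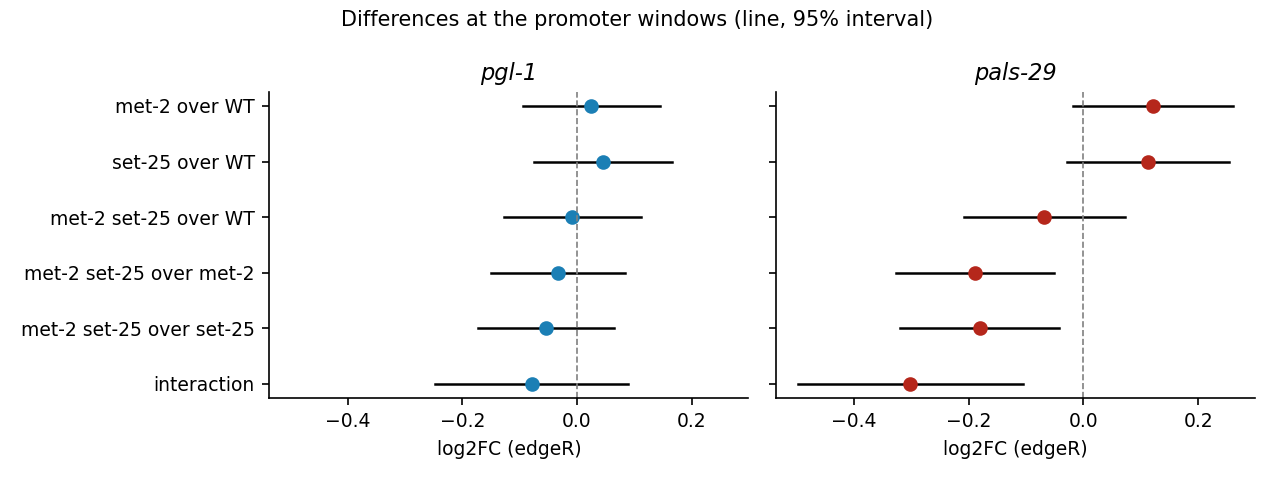
The log2FC of the *pgl-1* and *pals-29* windows in 5 contrasts between genotypes and in the interaction (point, edgeR estimate; line, 95% interval; dashed line, no difference). All *pgl-1* intervals include 0, whereas those of *pals-29* lie below 0 for the double mutant over *met-2*, over *set-25* and in the interaction, none of which passed an FDR of 0.01.

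Across all 43 windows, none was called at an FDR below 0.01 in any of the 3 mutants over WT (edgeR). Over all windows tested, 0.101% were called for *met-2*, 0.0273% for *set-25* and 4.17% for the double mutant. At this background, between 1 and 2 of 43 windows would match the share in the double mutant, so a count of 0 does not set the members apart. At an unadjusted p below 0.05, 1 window was higher in *met-2* (5.26% of all windows differed in either direction), 8 were higher in *set-25* (7.52%) and 3 were lower in the double mutant (26.1%). In the same directions, 1188, 2284 and 7892 of all 51281 windows passed that p. Of the 647 windows within 100 kb of *pals-29*, 16, 114 and 64 did, so higher values in *set-25* were also found in its surroundings. DESeq2 called none of the 43 windows in these 3 contrasts. The median log2FC of the members for the double mutant over WT was -0.068, compared with -0.041 over all windows.

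Between the double mutant and *met-2*, no member was called (0.404% of all windows), and 17 were lower at an unadjusted p below 0.05 (21.8% in either direction). At that p, 6452 of all 51281 windows were lower, and 139 of the 647 windows within 100 kb of *pals-29*. The 3 libraries of the double mutant lay below all 3 of *met-2* at 8 members (15.3% of all windows), and above them at 3 (9.43%). In the interaction no member was called (0.144%), and 13 had an unadjusted p below 0.05 (23.3%), whereas DESeq2 called 2 (0.985% of all windows). These 13 were all lower, as were 6880 of all 51281 windows and 225 of the 647 windows within 100 kb of *pals-29* at that p. The members' shares are given here beside those of all windows as a description, since neighbouring windows share reads. At most 9 of the 43 windows, 1 at *pgl-1* and 8 at *pals-29*, can be chosen without overlap.

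Between the double mutant and *set-25*, 6 of the 43 windows were lower and none was higher (edgeR FDR below 0.01), and DESeq2 called 4 (13.3% of all windows in either direction). In edgeR, 11.4% of all windows were called in either direction and 3.77% were lower. Of the 647 windows within 100 kb of *pals-29*, outside its interval, 83 were called, 66 lower and 17 higher. Of the 147 windows within 100 kb of *pgl-1*, 4 were called, all higher. Lower calls were thus also found in the surroundings of *pals-29*. At an unadjusted p below 0.05, 25 members were lower, compared with 13050 of all 51281 windows lower and 39.3% in either direction. Of the 647 windows within 100 kb of *pals-29*, 238 were lower at that p. All 3 double-mutant libraries lay below all 3 *set-25* libraries at 15 members, *pals-29* included (27.6% of all windows), and above them at none (15%). The median log2FC was -0.14 over the members and -0.057 over all windows.

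The 6 lower windows fell into 2 places on either side of *pals-29*, and none shares bases with its window. Downstream, the windows of the piRNA loci 21ur-8608 (14540208-14541907), 21ur-8570 and 21ur-6342 overlap each other. piRNAs are short RNAs bound by the Argonaute protein PRG-1 in the germ line, and most of their genes are clustered on chromosome IV. Upstream, the windows of T27E7.9 (NM_001028234, 14549181-14550880), 21ur-1606 and 21ur-10019 cover nearly the same bases.

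Downstream, 21ur-8608 had 17.8, 16.5 and 18.1 CPM in the double mutant and 19.9, 21.3 and 20.6 CPM in *set-25*. It had 19.2, 16.9 and 18.998 CPM in WT and 18.6, 19.5 and 20.4 CPM in *met-2*. The double-mutant libraries lay below those of both single mutants and overlapped with WT, while those of *set-25* lay above WT. The log2FC over *set-25* was -0.24 (SE 0.059, edgeR FDR 0.0022). Over WT it was -0.071 (edgeR FDR 0.47).

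Upstream, T27E7.9 had 16.8, 17.03 and 17.2 CPM in the double mutant and 19.3, 19.5 and 20.9 CPM in *set-25*. It had 17.5, 18.4 and 18.5 CPM in WT and 18.8, 19.3 and 20.5 CPM in *met-2*. The order was the same as at 21ur-8608, with the double mutant lowest and *set-25* highest in the mean. The log2FC over *set-25* was -0.23 (SE 0.058, edgeR FDR 0.0031). The other 4 called windows had a log2FC of -0.23 each.

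Passing the threshold depended on single libraries, whereas the log2FC of all 6 windows stayed negative with each library left out. It ranged from -0.27 to -0.20 at 21ur-8608 and from -0.25 to -0.19 at T27E7.9. The share of all windows called, 11.4% with all libraries, also fell in the fits named next. The count of 6 became 0 without *set-25* replicate 3 (6.79% of all windows called in either direction) and 0 without double-mutant replicate 2 (4.19%). It became 1 without double-mutant replicate 1 (9.46%) and 3 without *set-25* replicate 2 (6.79%). With TMM factors 1 member was called (10.7% of all windows). With the signal index as a covariate no member was called, beside 0.0234% of all windows. The index separates the same libraries as this contrast, so that fit cannot tell the index from the genotype. In it, the log2FC was -0.071 at 21ur-8608 (SE 0.091, edgeR FDR 0.95) and -0.18 at T27E7.9 (SE 0.092, FDR 0.79).

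**Figure D3:**
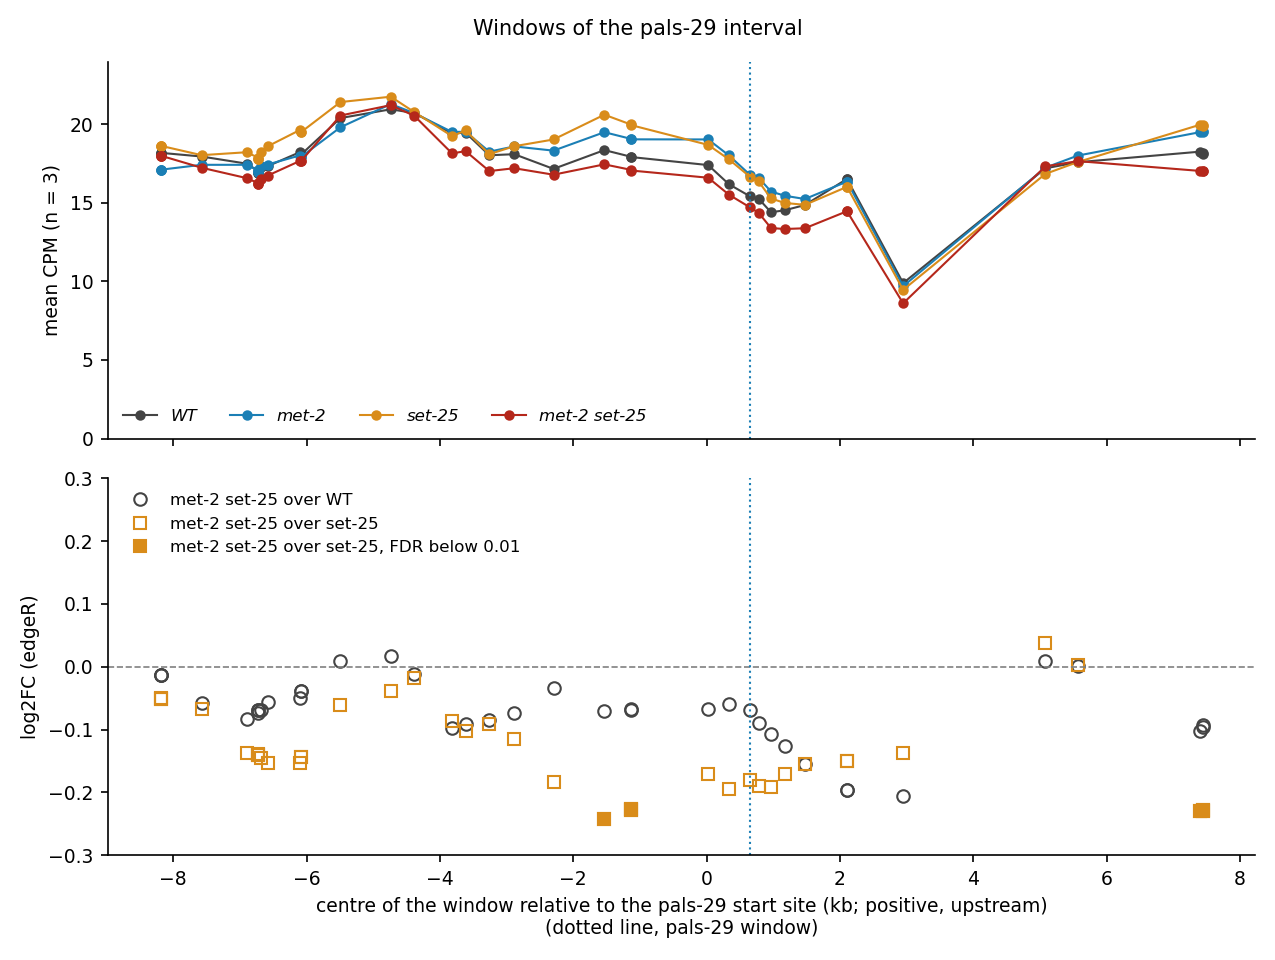
The 39 windows of the *pals-29* interval by the distance of their centre from the *pals-29* start site in kb (positive, upstream). The upper panel shows the mean CPM of each genotype (n = 3), with the lowest point at 21ur-2655, and the lower panel the log2FC of *met-2 set-25* over WT (circles) and over *set-25* (squares, filled at an FDR below 0.01), where 6 filled squares lie in 2 places and *pals-29* (dotted line) is open.

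Along the *pals-29* interval, the level varied more between positions than between genotypes. The 39 windows, 35 of them at piRNA loci and 4 at protein-coding genes (T27E7.4, T27E7.5, *pals-29* and T27E7.9), had mean levels between 9.42 and 21.3 CPM with a median of 17.9 CPM. The highest level was at 21ur-3371 (14537004-14538703), downstream of *pals-29*, and exceeded 77.0% of all windows. The lowest was at 21ur-2655 (14544689-14546388), upstream of the *pals-29* window, and exceeded 2.30% of all windows. The *pals-29* window and this window with the lowest level are separated by 598 bp. How well reads can be placed in the 21ur-2655 window was not tested.

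The 21ur-2655 window had 9.31, 10.2 and 10.2 CPM in WT and 9.49, 9.18 and 10.4 CPM in *met-2*. It had 9.72, 8.98 and 9.70 CPM in *set-25* and 9.03, 8.21 and 8.58 CPM in the double mutant. The double-mutant libraries were below all WT libraries and all *met-2* libraries. The log2FC over WT was -0.21 (SE 0.075, edgeR FDR 0.065), the largest in the interval but not past the threshold. The next largest was -0.20 at 21ur-13863 (FDR 0.071), whose window shares 245 bases with that of *pals-29*, and 21ur-14002 has nearly the same window. At 21ur-13863 the double-mutant libraries, with 15.9, 12.7 and 14.8 CPM, overlapped with WT at 15.6, 17.4 and 16.6 CPM.

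Besides its own, 8 windows share between 244 and 1570 bases with the *pals-29* window. Among these 9 windows, the log2FC of *met-2 set-25* over WT ranged from -0.20 to -0.059, over *met-2* from -0.23 to -0.18 and over *set-25* from -0.20 to -0.15. None of the 9 was called in any contrast. The 24 windows downstream ranged from -0.098 to 0.017 over WT, and the 6 upstream from -0.21 to 0.0088.

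*pals-30*, a neighbouring gene of the same family, lies outside the interval, with a start site 9352 bp from that of *pals-29* (NM_070365, window 14551743-14553442). It had 14.96, 12.9998 and 14.01 CPM in WT and 13.3, 15.2 and 15.2 CPM in *met-2*. It had 15.3, 15.2 and 15.998 CPM in *set-25* and 13.5, 13.7 and 14.1 CPM in the double mutant. The *set-25* libraries lay above those of WT and the double mutant, and no difference passed the test. Over WT, the log2FC was 0.064 for *met-2* (edgeR FDR 0.98), 0.15 for *set-25* (FDR 0.65) and -0.020 for the double mutant (FDR 0.89), with 0.015 for the latter after TMM scaling. Over *set-25*, the double mutant had a log2FC of -0.17 (FDR 0.065) at *pals-30*, next to -0.18 at *pals-29*.

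Set against their surroundings, neither promoter stood apart. The *pgl-1* window had a mean of 19.3 CPM, above 56.6% of all windows tested and 46.9% of the 147 windows within 100 kb, whose median was 19.5 CPM. The *pals-29* window had a mean of 15.9 CPM, above 19.2% of all windows and 29.5% of the 647 windows within 100 kb, whose median was 17.02 CPM. The surroundings of *pals-29* consisted mainly of piRNA loci (608 of 647 windows), compared with 54 of 147 around *pgl-1*. Both genes thus had levels inside the range of their neighbours, which was 10.2 to 29.1 CPM around *pgl-1* and 6.11 to 34.8 CPM around *pals-29*.

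Around *pgl-1*, the highest windows were those of *tre-2*, a trehalase gene, at 29.1 CPM and T05A12.3 at 24.8 CPM. The lowest were 21ur-8882 at 10.2 CPM and *gtnt-47* at 13.4 CPM. Around *pals-29*, the highest were a pair of windows of *dmd-6*, a gene of the DM-domain transcription factor family, at 34.8 and 33.8 CPM. The lowest were 21ur-7773 at 6.11 CPM and 21ur-1053 at 7.46 CPM.

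A few of the surrounding windows were called in the double mutant over WT. Around *pgl-1*, 2 of 147 windows were called in *met-2 set-25* over WT, both higher, and around *pals-29* 10 of 647, of which 8 were higher and 2 lower (edgeR FDR below 0.01). Of all windows, 4.17% were called, 3.44% higher and 0.731% lower, so the share of calls near either gene was below that of all windows. The 2 called windows near *pgl-1* overlap, 69.1 kb from its window. 21ur-10311 rose from 21.6, 21.2 and 21.2 CPM in WT to 24.9, 27.9998 and 27.1 CPM in the double mutant (log2FC 0.33, SE 0.061, FDR 0.00032). The window of *nhr-105*, a nuclear hormone receptor gene, had a log2FC of 0.23 (FDR 0.0098), which was 0.16 (FDR 0.18) without WT replicate 3.

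Near *pals-29*, the called windows with the smallest FDR were 3 overlapping ones, 21ur-3021, 21ur-8604 and 21ur-11300, between 34.7 and 35.04 kb away. 21ur-3021 rose from 22.6, 24.6 and 21.8 CPM in WT to 29.8, 35.9 and 31.98 CPM in the double mutant. The *met-2* libraries had 25.7, 25.2 and 19.5 CPM and the *set-25* libraries 20.7, 19.6 and 21.4 CPM. The log2FC of the double mutant over WT was 0.50 (SE 0.075, edgeR FDR 6.8e-06) and all its libraries lay above those of the other 3 genotypes. With the signal index as a covariate it was 0.20 (FDR 0.45).

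The called windows nearest to *pals-29*, singled out after their values were seen, were the almost identical windows of 21ur-1030 and 21ur-10014, downstream of the interval and 8.87 kb from the *pals-29* window. 21ur-1030 had 18.05, 18.98 and 20.6 CPM in WT and 21.4, 24.6 and 24.6 CPM in the double mutant. The *met-2* libraries had 22.5, 23.95 and 19.9 CPM and the *set-25* libraries 19.5, 19.3 and 18.4 CPM. The double mutant lay above WT and *set-25* and overlapped with *met-2*. The log2FC over WT was 0.29 (SE 0.062, edgeR FDR 0.0012), and the call was lost without WT replicate 1 (0.25, FDR 0.020), without double-mutant replicate 2 (0.26, FDR 0.028) or replicate 3 (0.26, FDR 0.012), and with the covariate (0.15, FDR 0.70).

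**Figure D4:**
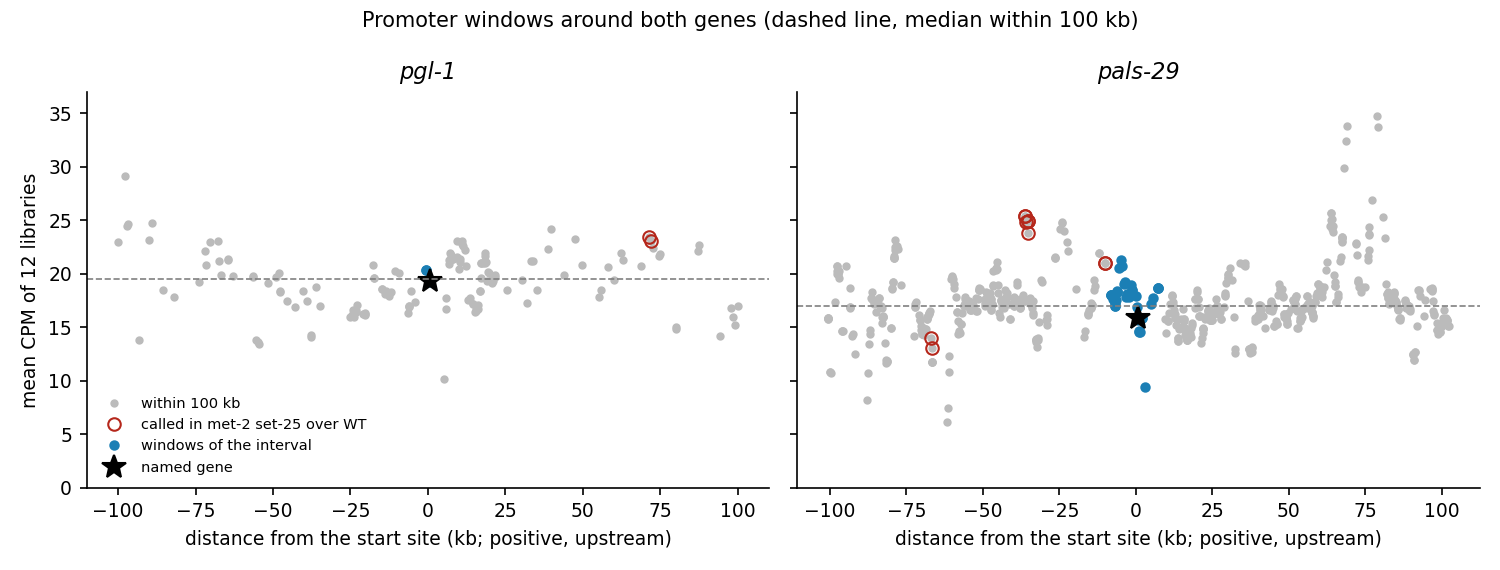
Mean CPM over 12 libraries of the promoter windows within 100 kb of *pgl-1* and *pals-29*, by distance from the start site in kb (grey, surrounding windows; blue, windows of the interval; star, the named gene; red circles, called in *met-2 set-25* over WT at an FDR below 0.01; dashed line, median of the surrounding windows). The stars, at 19.3 and 15.9 CPM, lie near the medians of 19.5 and 17.02 CPM, and no window of either interval is circled.

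The surroundings of *pals-29* had median differences in the same direction as the gene. Over the 647 windows, *met-2* had a median log2FC of 0.043 over WT, compared with 0.12 at *pals-29*, and *set-25* had 0.056, compared with 0.11. The median was -0.071 for the double mutant over *met-2*, -0.093 over *set-25* and -0.13 in the interaction. For the double mutant over WT it was -0.035. Around *pgl-1* the medians over WT were -0.017 for *met-2*, 0.0055 for *set-25* and -0.049 for the double mutant.

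A local ratio, the log2 of the count in the window over the median count of the windows within 100 kb, takes such shared differences and the column totals out. For *pgl-1* it was -0.013, -0.12 and 0.053 in WT and -0.042, 0.0057 and -0.0068 in *met-2*. It was 0.031, 0.024 and -0.050 for *set-25* and -0.018, -0.051 and 0.078 in the double mutant. The libraries of all genotypes overlapped, and the largest difference between genotype means was 0.030. The exact two-sided permutation tests of the *pgl-1* ratios gave p-values between 0.7 and 1.

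For *pals-29*, the local ratio was -0.14, -0.19 and -0.026 in WT and 0.0058, -0.14 and 0.027 in *met-2*. It was -0.067, -0.016 and -0.13 for *set-25* and -0.14, -0.17 and -0.16 in the double mutant. Every library of the double mutant had a lower ratio than every library of *set-25*, with a difference of -0.084 between the means. The closest libraries were nearly tied, at -0.138 in double-mutant replicate 1 and -0.134 in *set-25* replicate 3. The exact two-sided permutation p was 0.1, the smallest that 3 against 3 libraries allow, and the adjusted value over the 10 tests of both genes was 1. The difference to *met-2* was -0.12 (exact permutation p = 0.2) and that to WT was -0.037 (exact permutation p = 0.8). The difference to *set-25* in the local ratio stands beside a log2FC of -0.18 in the edgeR fit and a median of -0.093 over the surrounding windows.

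**Figure D5:**
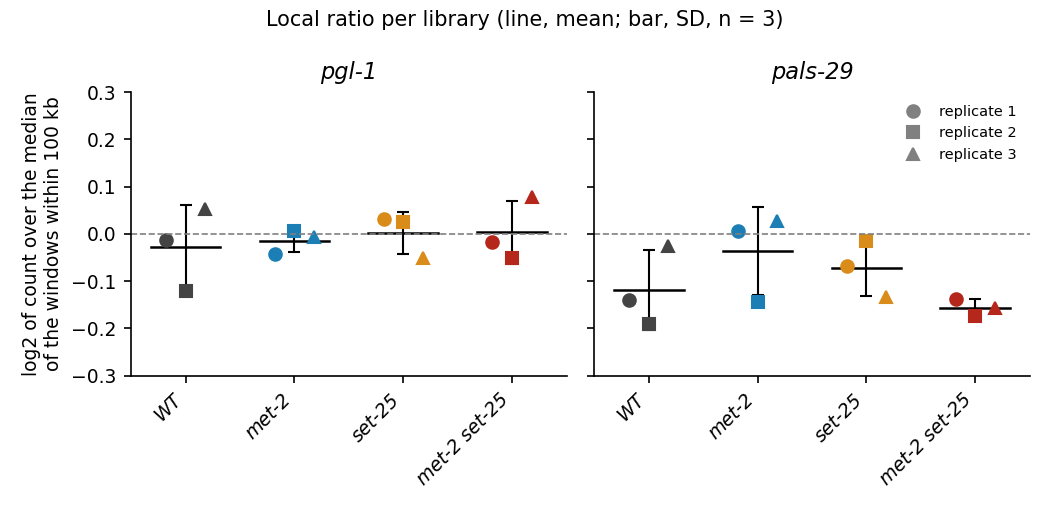
Local ratio of the *pgl-1* and *pals-29* windows per library, as log2 of the count over the median count of the windows within 100 kb (line, mean; bar, SD, n = 3; marker shape, replicate number; dashed line, equal to the surroundings). The *pgl-1* ratios scatter around 0 in all genotypes, and the *pals-29* ratios lie between -0.19 and 0.027. All 3 double-mutant libraries lie below those of *set-25* at *pals-29*, with 1 library of each nearly tied.

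Among the windows with a mean count of at least 500 outside 100 kb, those whose log2 CPM followed *pgl-1* most closely over the 12 libraries were F11D5.5 (Pearson r 0.93), *clec-205*, a C-type lectin gene (0.93), and F16F9.17 (0.91). For *pals-29* they were the piRNA windows 21ur-8606, 21ur-10766 and 21ur-2688 (0.97 each), all on chromosome IV. The windows of 21ur-8606 (14664065-14665764) and 21ur-10766 (14664409-14666108) overlap and share reads. Both lie not far beyond the excluded 100 kb. These are the highest values among 48325 and 47797 windows, over libraries that also differ in signal index, and serve as a description. The correlation was 0.50 between *pgl-1* and *pals-29*, 0.48 between *pals-29* and *pals-30* and 0.48 between *pgl-1* and *him-3*, whose windows share reads.

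Windows of P-granule genes and of the *pals* family, lists that include *pgl-1*, *pals-29* and *pals-30* themselves, were mostly not called either. Of 26 windows of 22 P-granule genes, 2 were lower and none was higher in *met-2 set-25* over WT (edgeR FDR below 0.01, with 0.731% of all windows lower and 3.44% higher), and the median log2FC was -0.087, compared with -0.041 over all windows. An unadjusted edgeR p below 0.05 was found at 10 of the 26 (26.1% of all windows). *glh-3*, which encodes a germline RNA helicase, had means of 21.7 CPM in WT and 18.5 CPM in the double mutant (log2FC -0.22, FDR 0.0085). *znfx-1*, which encodes a helicase of the small-RNA pathway, had 19.7 and 16.96 CPM (log2FC -0.22, FDR 0.0083). The third largest difference was at *wago-1*, an Argonaute gene, with a log2FC of -0.20 (FDR 0.037). With TMM factors the FDR was 0.029 for *glh-3* and 0.023 for *znfx-1*, so that both calls were lost. Over *set-25*, *glh-3* alone was called in the double mutant (log2FC -0.25, FDR 0.0012), and no P-granule window was called in the other 4 contrasts.

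Of 46 windows of 38 *pals* genes, none was called in any contrast by edgeR. In *met-2 set-25* over WT, 4 had an unadjusted p below 0.05 (26.1% of all windows), and the median log2FC was -0.065. The largest differences were at *pals-24*, *pals-12* and *pals-32*, with log2FC values of -0.15, -0.15 and -0.14 (edgeR FDR of 0.12, 0.12 and 0.16). Over *set-25*, 19 of the 46 had an unadjusted p below 0.05 (39.3% of all windows) and the median was -0.0997. The *pals-29* log2FC of -0.068 over WT was close to the median of its family.

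The study examined 5 H3K9me targets, *pals-30* among them, for expression, and this list was chosen with its own expression data in hand. It also measured binding of the transcription factor CEH-48 by ChIP-qPCR at promoters of such targets, *pals-30* included. In *met-2 set-25* larvae it reports gained binding at derepressed promoters that carry the CEH-48 motif. Binding was not analysed here. None of their 5 windows was called in any contrast. In *met-2 set-25* over WT none had an unadjusted p below 0.05, and log2FC values ranged from -0.058 to 0.084. The largest were 0.084 at *sri-62*, a chemoreceptor gene (edgeR FDR 0.40), 0.079 at C23H5.12 (FDR 0.46) and -0.058 at *fbxa-171*, an F-box gene (FDR 0.57).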

How the data were processed

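The authors deposited unnormalized counts per promoter window and library. According to the methods they trimmed reads with cutadapt, aligned them to ce10 with bowtie2, removed duplicates with Picard, split pairs with bedtools 2.26, shifted read ends for Tn5 and counted reads on any strand with QuasR, for promoters described there as shorter than the deposited windows. How reads with several matches were treated is not given in the sources used here. Overlapping windows share reads.

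For the tests, the two-sided quasi-likelihood functions of edgeR 4.0.16 under R 4.3.3 were applied to 51281 windows with any count (Benjamini-Hochberg FDR below 0.01), in a fit of 12 libraries with column totals as library sizes and no block. Alternatives were TMM factors, DESeq2 1.42.0, filterByExpr, a replicate block, the compared genotypes only, the log2 signal index as covariate (5% of autosomal windows without the 10 with most counts), an FDR of 0.05, other surroundings for the local ratio and each library left out. In the edgeR fits, the spread at each window was estimated with information from all windows tested, many of which share reads. The p-values and intervals therefore do not rest on the libraries at that window alone. Local ratios were compared by exact permutation. No pair of replicates agreed within sampling noise.

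Named windows were *pgl-1*, *pals-29*, *pals-30*, members called in any contrast, the 2 largest differences in the double mutant per interval, the 2 highest, 2 lowest and up to 3 called windows within 100 kb, the 3 most similar windows per gene, and in each list the called windows and the 3 largest differences; 21ur-3371, 21ur-1030 and 21ur-10014 were named after their values were seen. Members, lists and tests were chosen with earlier results of these data known. Gene names were matched by RefSeq identifier to the WBcel235 annotation (95.9% of windows), whose coordinates were not used. Figures were drawn with matplotlib 3.10.9, and summaries used Python 3.11.15 with pandas 2.3.3, numpy 2.4.6 and scipy 1.17.1. Peaks, RNA-seq and histone marks were not analysed here.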

Additional observations from a re-analysis of the deposited data

How the results depend on the processing

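Of 269 values from alternatives that keep all libraries, 215 kept their direction and their side of the threshold, 30 of single named windows lost a call, and 24 moved or changed sign. The *pgl-1* log2FC of *met-2 set-25* over WT was 0.027 with TMM factors and 0.029 with DESeq2, and that over *met-2* was 0.0024 with DESeq2. With the signal index as a covariate it was 0.10 over WT, 0.069 over *met-2*, 0.091 over *set-25* and 0.057 in the interaction, and for *pals-29* it was 0.11 over WT and 0.052 over *set-25*. The *pals-30* log2FC of *met-2 set-25* over WT was 0.015 with TMM factors, 0.018 with DESeq2 and 0.049 with the covariate. The cause was not tested, and none of these values passed an FDR of 0.01.

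Of the 43 windows, *met-2 set-25* over *set-25* gave 1 call with TMM factors, 0 with the signal index as a covariate and 12 at an FDR of 0.05 (24.5% of all windows). At an FDR of 0.05, *met-2 set-25* over *met-2* gave 3 calls (3.4%) and the interaction 7 (3.29%), and DESeq2 gave 2 in the interaction. The local ratio of *pgl-1* in *met-2 set-25* over *met-2* was -0.00090 with windows within 250 kb and -0.0030 with the sum of the surrounding windows, and over *set-25* it was -0.013, -0.015 and, with protein-coding windows only, -0.015. The fit of the compared genotypes only gives no interaction.

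Leaving out each library in turn, the *pgl-1* log2FC ranged from -0.020 to 0.062 for *met-2* over WT, from -0.053 to 0.027 for *met-2 set-25* over WT and from -0.071 to 0.0060 over *met-2*, and the *pals-30* log2FC of *met-2 set-25* over WT from -0.071 to 0.027. Calls ranged from 0 to 6 for the double mutant over *set-25* (4.19 to 13.7% of all windows) and from 0 to 1 in the interaction (0.0858 to 1.04%). The local ratio of *pgl-1* ranged from -0.034 to 0.053 for *met-2* over WT, from -0.018 to 0.069 for *set-25* over WT and, for the double mutant, from -0.017 to 0.070 over WT, from -0.020 to 0.044 over *met-2* and from -0.036 to 0.028 over *set-25*, and that of *pals-29* in *met-2 set-25* over WT from -0.073 to 0.010.

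Same-numbered libraries did not deviate together throughout. Of 18 correlations of their deviations, 6 exceeded 0.1 (mean 0.092), compared with 5 of 36 for other numbers (mean -0.047). With the replicate number as a block, 7 of the 43 windows were called in the interaction (2.74% of all windows) and 6 for the double mutant over *set-25* (15.6%), and the *pals-29* interaction was -0.30 (edgeR FDR 0.025).

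Windows at *pgl-1* and *pals-29* held between 770 and 2046 counts per library. The 95% intervals of their log2FC between genotypes reach 0.12 to either side at *pgl-1* and 0.14 at *pals-29*, and 0.17 and 0.20 in the interaction. Differences as large as -0.19 at *pals-29* did not pass an FDR of 0.01, and 3 libraries per genotype limit the exact tests to 0.1.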
